A study of Mus musculus with 7 samples.

Results

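The genes described here are 165 solute carriers expressed in a sorted stromal cell population of the mouse intestine. Solute carriers are membrane proteins that move small molecules across cellular membranes. A gene was included if its symbol was Slc, a family number, the letter a and a member number, and if it reached 1 FPKM in at least 2 of the 7 RNA sequencing libraries. FPKM is a fragment count divided by the length of the transcript and by the size of the library, so levels can be set side by side between genes. Of 334 solute carrier symbols in the table, 165 met this rule, and they stand among 11735 genes of 24908 symbols that pass the same expression minimum. The minimum chose the genes on their levels in all 7 libraries, so their being expressed is a condition of the rule and not a result. Families named with other letters, such as most nucleotide sugar carriers of family 35, lie outside the symbol rule.

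The cells were Pdgfra-low CD81+ cells sorted from intestinal mesenchyme, with a GFP-low gate named in the column headers. There were 3 wildtype control libraries, 2 libraries from mice 4 days and 2 from mice 6 days after Apc was inactivated with Apc flox/flox alleles and the Villin-CreERT2 driver. That driver recombines in intestinal epithelium, so the sorted stromal cells were not themselves targeted and the level of Apc in them is no check of the knockout. Age and sex of the mice, any tamoxifen given to controls, and whether libraries came from separate animals or pools are not given in the sources used here, so the spread behind each p-value may be technical. By the column headers, a day 4 set holds 1 control beside both day 4 knockouts, and a day 6 set holds the other 2 controls beside the day 6 knockouts. For 1 day 6 knockout column the day was inferred by elimination. Both comparisons with wildtype used the same 3 controls, whose values are listed throughout as day 4 set control, then the first and the second day 6 set control.

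Each solute carrier family groups proteins of related sequence, and most couple the movement of their substrate to its own gradient or to that of sodium, protons or another solute. In a tissue they set which nutrients a cell can take up, which metals and ions it holds, and which metabolites it passes to its neighbours. Family 25 lies almost wholly in the inner mitochondrial membrane. Mesenchymal cells beneath the crypts, to which Pdgfra-low CD81+ cells belong, are best known as a source of niche factors for epithelial stem cells, and their transporters are described far less often than those of absorptive enterocytes.

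Libraries differed in ways that bear on the values below. Column sums ran from 351323 to 427369 FPKM. No counts are in the table, so sequencing depth is unknown and no counting interval can be given. Of the sort markers, Pdgfra was 54.3 to 61.3 FPKM in controls and 76.5 to 134 FPKM in knockout libraries, and Cd81 ranged from 32.4 to 169 FPKM. Grem1, a niche factor gene of these cells and no sort marker, ranged from 101 to 501 FPKM, with the lowest Cd81 and Grem1 in day 4 knockout replicate 2. Col1a1, Col1a2 and Dcn, collagen and matrix genes of fibroblasts, were listed at 0 in the day 4 set control and were abundant in the other 6 libraries, while no solute carrier in the set was listed at 0 in any library. Epithelial contamination was low by the markers: 4 of 14 epithelial marker genes reached the expression minimum, and Epcam ranged from 0.237 FPKM in day 4 knockout replicate 2 to 5.70 FPKM in day 4 knockout replicate 1. Macrophage and dendritic cell markers averaged 1.47 (mean log2(FPKM + 1) over 14 genes) in day 4 knockout replicate 2 and 3.11 to 4.32 in the other libraries. B and plasma cell markers averaged 1.12 in that same library and 2.69 to 5.24 elsewhere. In bulk RNA of this kind, fewer cells of a type and less RNA per cell cannot be told apart.

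Of 17 transporters listed as epithelial, 14 did not meet the expression minimum and 3 did (Slc46a1, Slc26a6 and Slc28a2). Slc15a1, the intestinal peptide transporter, was listed at 0 in all 7 libraries, Slc5a1, the sodium-glucose cotransporter, did not exceed 0.134 FPKM, and Slc2a2, the basolateral glucose and fructose transporter of enterocytes, did not exceed 0.337 FPKM. In all, 49 of the 334 solute carrier symbols were listed at 0 in every library, and 163 reached 1 FPKM in none. Just outside the rule were 6 symbols that reached 1 FPKM in exactly 1 library: Slc15a2 (1.48 FPKM there), Slc16a7 (1.07), Slc16a10 (1.14), Slc22a3 (1.002), Slc24a5 (1.26) and Slc4a10 (1.075). Just inside were 5 that did so in exactly 2 libraries: Slc25a34 (1.36 and 1.23 FPKM), Slc27a6 (1.11 and 1.13), Slc38a1 (1.78 and 1.22), Slc38a5 (1.38 and 1.405) and Slc38a6 (1.06 and 1.23). At the other end, 142 members reached it in all 7. Slc38a1 and Slc25a34 reached 1 FPKM in knockout libraries only and Slc38a5 and Slc27a6 in wildtype libraries only, so the direction of those 4 is bound up with the way they were chosen.

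Start site sequences are shown for 4 members whose mean levels were higher in the knockout libraries at both days and whose roles fall under glucose, lactate and basic amino acid transport. The description also fits Slc7a6, which is not shown. RefSeq promoter windows of build GRCm38.p6 matched 126 of the 165 members, with 170 windows. Each run below is the 250 bases before the start, on the strand of the gene. In the first 3, capitals mark ACGTG, the core of the hypoxia response element, or its reverse complement, so that CACGTG in Slc16a1 holds a match on each strand and is also the letters of the E-box. In Slc25a29, capitals mark TGCNCNC or its reverse complement. TGCNCNC is looser than the core of the metal response element, TGCRCNC, where R is A or G. The matches TGCCCAC and TGCCCCC fit only the looser letters.
Slc2a1, chr4:119108495-119108744, plus strand: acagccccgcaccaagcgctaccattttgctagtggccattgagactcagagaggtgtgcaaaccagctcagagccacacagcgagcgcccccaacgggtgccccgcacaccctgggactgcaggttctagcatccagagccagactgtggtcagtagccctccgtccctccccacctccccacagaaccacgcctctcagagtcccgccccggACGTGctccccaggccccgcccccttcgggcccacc
Slc16a1, chr3:104638414-104638663, plus strand: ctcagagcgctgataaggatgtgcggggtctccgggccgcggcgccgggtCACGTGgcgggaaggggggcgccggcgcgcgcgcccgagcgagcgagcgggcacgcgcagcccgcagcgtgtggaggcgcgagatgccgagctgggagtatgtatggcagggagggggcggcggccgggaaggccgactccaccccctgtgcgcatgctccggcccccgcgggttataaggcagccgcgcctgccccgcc
Slc16a3, chr11:120948817-120949066, plus strand: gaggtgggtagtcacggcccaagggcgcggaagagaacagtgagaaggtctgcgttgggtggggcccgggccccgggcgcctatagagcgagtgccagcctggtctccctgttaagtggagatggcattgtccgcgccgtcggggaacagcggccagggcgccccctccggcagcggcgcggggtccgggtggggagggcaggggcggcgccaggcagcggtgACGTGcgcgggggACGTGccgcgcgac
Slc25a29, chr12:108835877-108836126, minus strand: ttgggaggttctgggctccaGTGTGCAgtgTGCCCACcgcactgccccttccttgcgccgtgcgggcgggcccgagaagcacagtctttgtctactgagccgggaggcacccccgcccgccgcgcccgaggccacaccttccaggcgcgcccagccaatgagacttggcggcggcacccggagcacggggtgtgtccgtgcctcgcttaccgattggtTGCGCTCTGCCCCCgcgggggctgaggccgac

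These letters are common. Over whole windows of 300 bases and both strands, ACGTG stood in 51 of the 170 member windows (30%) and in 19.6% of all 32851 windows, and TGCNCNC in 98 (57.6%) and 51.0%. The antioxidant response element TGACNNNGC stood in 37 (21.8%) and 12.4%, and the amino acid response element TGATGNAA in 5 (2.94%) and 3.97%. The members are expressed genes, whereas the 32851 windows were not limited to expressed genes, so the shares are not a like comparison. The ACGTG match of Slc2a1 overlaps a TGCNCNC match, and the CACGTG of Slc16a1 overlaps a TGACNNNGC match. In the runs printed above, unmarked TGCNCNC matches number 2 in Slc2a1, 2 in Slc16a1 and 1 in Slc16a3, so these letters do not set Slc25a29 apart. The window of Slc25a29 held 0 ACGTG matches, and that of Slc27a3, which was lower in every knockout library, held 1. Windows of 1 gene can overlap each other, no binding was measured, and a match is a description of the letters only.

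In wildtype cells the most abundant solute carriers moved nucleobases, adenine nucleotides, neutral amino acids, nucleosides, zinc and choline. Slc43a3, a facilitative nucleobase transporter, led at 191 ± 17.8 FPKM (SD, n = 3), followed by the mitochondrial ADP/ATP carriers Slc25a4 (151 ± 12.9 FPKM) and Slc25a5 (141 ± 25.03 FPKM), with the sodium-coupled neutral amino acid transporter Slc38a2 between them (142 ± 33.8 FPKM). Next came the equilibrative nucleoside transporter Slc29a1 (120.2 ± 29.6 FPKM), the glutamine exchanger Slc1a5 (118 ± 10.3 FPKM), the endoplasmic reticulum zinc exporter Slc39a7 (106 ± 15.8 FPKM) and the choline transporter Slc44a1 (100.4 ± 21.6 FPKM). These 8 were the only members with a control mean of at least 100 FPKM. From Slc25a4 downwards, neighbours in this order differed by less than the larger of their standard deviations.

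The distribution was wide. Control means were at least 10 FPKM for 58 members and under 2 FPKM for 29, and the 10 highest members held 46.0% of the FPKM of all 165. Summed, solute carriers of the set made up 0.623% to 0.806% of a library. Mitochondrial carriers formed the largest class, with 36 members, a median control level of 7.97 FPKM and 27.6% of the members' control FPKM. Amino acid and peptide transporters (25 members, median 4.83 FPKM) held 17.9%, and metal and heme transporters (25 members, median 11.6 FPKM) held 15.3%. Only 6 members carry nucleosides or nucleobases, and they held 12.2%, nearly all of it Slc43a3 and Slc29a1. The 19 carriers of inorganic ions held 5.64% (median 5.55 FPKM), the 9 of fatty acids, bile acids, choline or acetyl-CoA 8.16% (12.3 FPKM), and the 13 of sugars and sugar phosphates 4.78% (3.01 FPKM). No other class held over 3%.

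**Figure D1:**
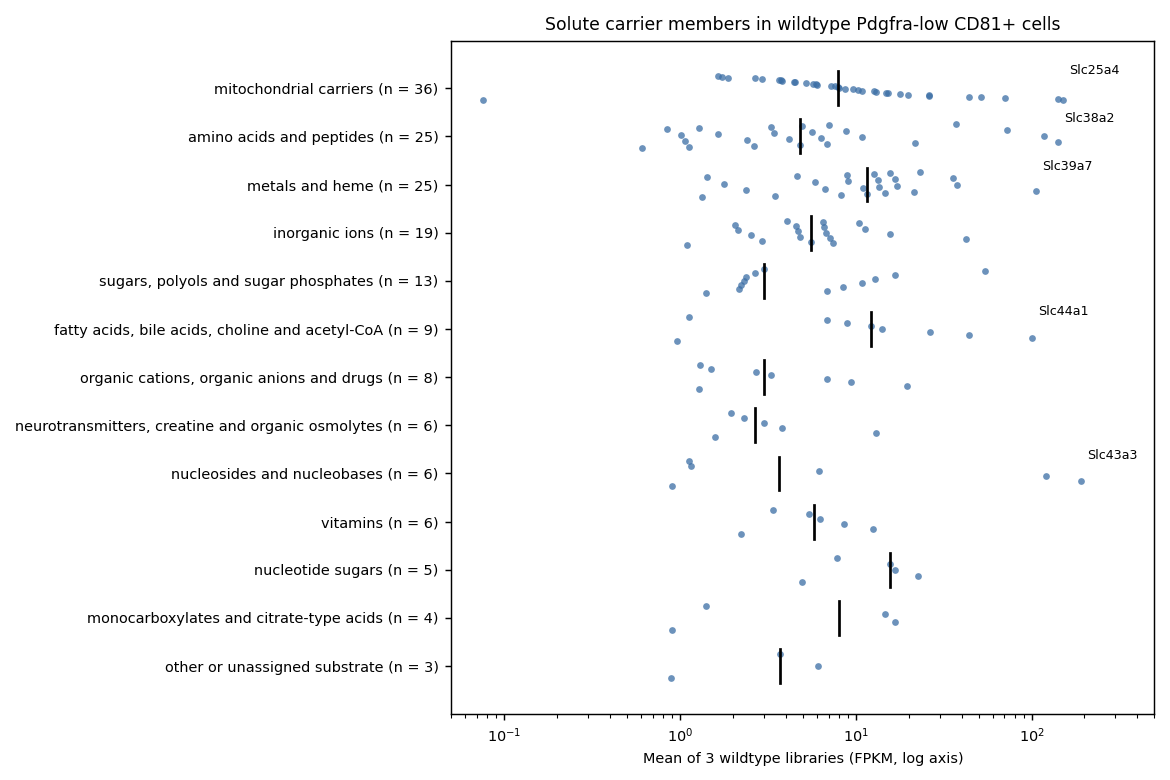
Mean FPKM of the 3 wildtype libraries on a log axis for each of the 165 members, grouped by substrate class with the number of members. Each point is a gene, the vertical bar is the class median, and a gene named beside a class has its highest mean, where that is at least 100 FPKM. The points of most classes spread over more than a factor of 10, and Slc43a3 sits farthest to the right.

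Many members were steady across all 7 libraries. For 97 of 165 (58.8%) the highest library was within 2-fold of the lowest, against 57.7% of all genes tested, and the median coefficient of variation among controls was 16.3% against 17.4%. Slc31a1, the high-affinity copper importer, was the most even: it was 16.3, 16.3 and 14.4 in wildtype, 15.5 and 15.5 on day 4, and 16.5 and 14.8 FPKM on day 6, a range of 1.15-fold. Its difference from wildtype on the log2(FPKM + 1) scale had a 95% interval of -0.35 to 0.33 at day 4 and -0.34 to 0.34 at day 6. Slc50a1, a sugar efflux transporter of the Golgi, ranged 1.17-fold, with 53.9, 53.2 and 55.1 in wildtype, 50.1 and 51.98 on day 4, and 48.6 and 46.99 FPKM on day 6. All 4 knockout libraries of Slc50a1 lay below the lowest control by a narrow margin, the highest of them at 51.98 FPKM against 53.2 FPKM. The members with the largest ratio of highest to lowest library were Slc25a34, Slc28a2, Slc38a1, Slc6a11 and Slc11a1, each under 10 FPKM in every library.

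At 4 days after epithelial Apc inactivation, 1 solute carrier changed: Slc25a29, the mitochondrial carrier for basic amino acids, rose. It was 5.97, 4.58 and 6.56 in wildtype, 12.7 and 18.2 on day 4, and 10.2 and 9.85 FPKM on day 6. Every knockout library was above every control, and the day 4 libraries were the highest. The mean of the controls was 5.70 ± 1.02 FPKM (SD, n = 3), that of the day 4 knockouts 15.4 ± 3.91 and that of the day 6 knockouts 10.01 ± 0.214 FPKM (SD, n = 2 each). The change at day 4 was 1.28 ± 0.21 (SE, log2(FPKM + 1), 95% interval 0.80 to 1.77, adjusted p = 0.0441 by limma over 11735 genes). The background was 120 of 11735 genes called in either direction (1.02%), 47 higher (0.401%) and 73 lower (0.622%), so 1 of 165 members (1 higher, 0 lower) is a share near the background. The call did not hold under several alternatives: set against the day 4 set control alone, the change was 1.22 with adjusted p = 0.348. Leaving out day 4 knockout replicate 2 gave 1.04 with adjusted p = 0.123. Leaving out the first or the second day 6 set control gave adjusted p = 0.127 each time, and leaving out day 6 knockout replicate 1 or 2, which enter only through the shared spread, gave 0.0657 and 0.0653. With quantile normalization 3 members passed, Slc25a29 higher and Slc24a3 and Slc27a3 lower, which moves the split from 1 higher and 0 lower to 1 higher and 2 lower.

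Below the threshold, day 4 differences ran in both directions. At an unadjusted p under 0.05 stood 36 members (21.8%) against 18.6% of all genes tested. Of these, 18 were higher (background 6.2%) and 18 lower (background 12.3%). The members' median log2 change was -0.06, equal to that of all genes (-0.06), with a range of -1.33 to 1.28. Both day 4 libraries lay above all controls for 30 members (background 12.5%) and below them for 35 (background 22%).

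At 6 days after inactivation, 0 members passed the threshold by limma, and 5 of 11735 genes did (0.0426%), all higher. At an unadjusted p under 0.05 were 19 members (11.5%) against 7.26% of all genes. Of these, 13 were higher (background 3.79%) and 6 lower (background 3.47%). The smallest adjusted p among the members was that of Slc7a5, a large neutral amino acid transporter: its difference was 0.91 ± 0.17 (SE; limma adjusted p = 0.239). The median log2 change of the members was 0.03 (all genes -0.01). Both day 6 libraries lay above all controls for 30 members (background 13.9%) and below them for 14 (background 11.9%).

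With both days averaged, 0 members were called by limma against 19 of 11735 genes (0.162%), and 30 members had an unadjusted p under 0.05 (background 13.8%), 19 higher (background 5.27%) and 11 lower (background 8.58%). In 19 members the lowest of the 4 knockout values exceeded the highest control (background 5.32%), and in 10 the highest knockout value was under the lowest control (background 6.58%). The 19 were Slc2a1, Slc3a2, Slc7a5, Slc7a6, Slc10a6, Slc16a3, Slc17a5, Slc20a1, Slc20a2, Slc25a3, Slc25a5, Slc25a16, Slc25a29, Slc25a34, Slc26a11, Slc33a1, Slc39a14, Slc43a2 and Slc43a3. The 10 were Slc7a4, Slc24a3, Slc25a11, Slc25a23, Slc25a35, Slc27a3, Slc29a3, Slc31a2, Slc46a1 and Slc50a1. Slc25a34 entered the set through its knockout libraries. Because both days share the controls, the days are not independent of each other. The comparison of day 6 with day 4 knockout libraries called 0 members and 0 genes (0%) by limma, with 8 members at an unadjusted p under 0.05 (background 11.5%), 5 higher (background 8.53%) and 3 lower (background 2.93%). Both day 6 values exceeded both day 4 values in 41 members (background 27.2%) and were under them in 23 (background 15.3%).

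**Figure D2:**
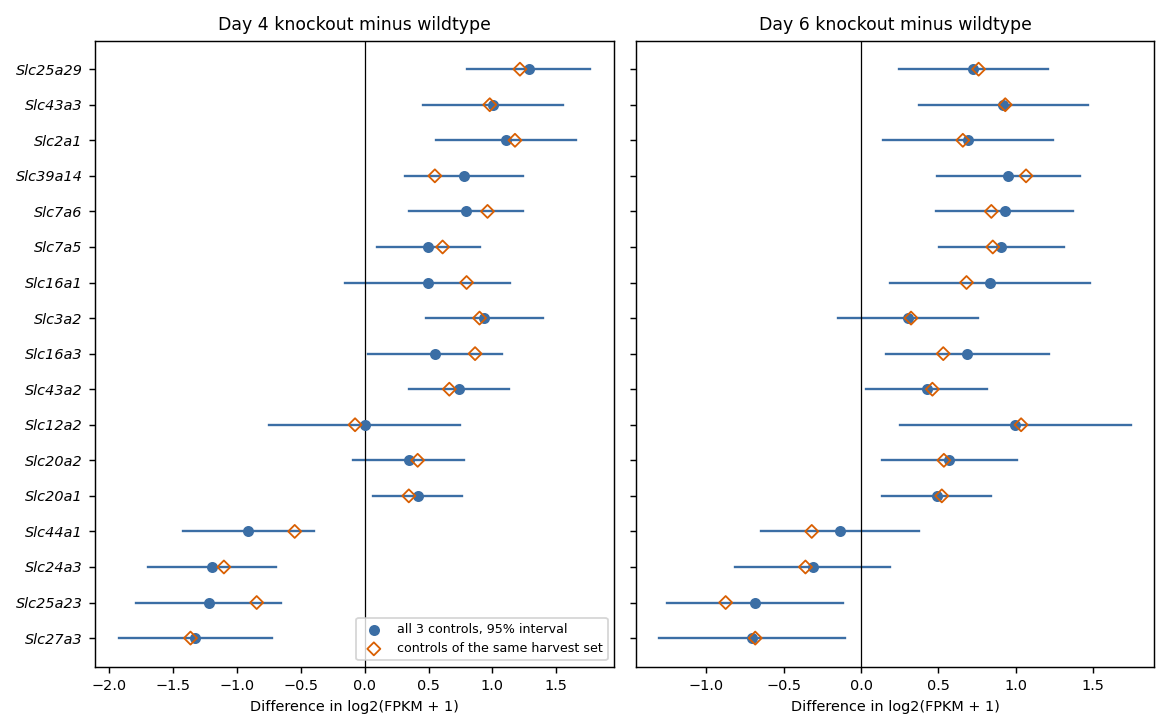
Difference in log2(FPKM + 1) between knockout and wildtype at day 4 (left) and day 6 (right) for the 17 members with the smallest p in any comparison. Blue points and bars are the limma estimate with its 95% interval from all 3 controls, and orange diamonds use the controls of the same harvest set. Slc25a29 is at 1.28 at day 4, and the diamonds of Slc44a1 and Slc25a23 lie nearer to 0 than their blue points at day 4.

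Amino acid and peptide transporters, which are 25 of the 165 members, held 4 of the 17 members with the smallest p. Slc3a2 is the heavy chain that carries several light-chain exchangers, Slc7a5 and Slc7a6 among them, to the plasma membrane. It was 38.02, 41.01 and 32.5 in wildtype, 85.3 and 60.4 on day 4, and 43.6 and 48.3 FPKM on day 6. All 4 knockout libraries were above the controls, the day 4 pair by the larger margin. The day 4 difference was 0.94 ± 0.20 (SE; limma adjusted p = 0.0745) and the day 6 difference 0.30 ± 0.20 (SE; limma adjusted p = 0.810).

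Of the light chains, Slc7a5 was 4.38, 5.42 and 4.70 in wildtype, 8.23 and 6.30 on day 4, and 9.93 and 9.91 FPKM on day 6. Slc7a6, which exchanges basic for neutral amino acids, was 4.26, 5.22 and 5.33 in wildtype, 8.59 and 9.93 on day 4, and 12.1 and 8.67 FPKM on day 6. Neither gene's knockout libraries overlapped the controls, and Slc7a5 was highest at day 6. For Slc7a6 the differences were 0.79 ± 0.19 (SE; limma adjusted p = 0.103) at day 4 and 0.93 ± 0.19 (SE; limma adjusted p = 0.342) at day 6, and for Slc7a5 the day 4 difference was 0.50 ± 0.17 (SE; limma adjusted p = 0.195). The other light chains of the family were lower in level. Slc7a7 and Slc7a8 did not separate the groups, and Slc7a11, the cystine exchanger, stayed under the expression minimum.

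Slc43a2, a facilitative transporter of large neutral amino acids, was 2.83, 2.25 and 2.86 in wildtype, 4.98 and 5.13 on day 4, and 3.93 and 3.82 FPKM on day 6. Its related gene Slc43a1 was 16.8, 26.7 and 21.7 in wildtype, 29.6 and 27.3 on day 4, and 27.1 and 21.2 FPKM on day 6. All knockout libraries of Slc43a2 lay above the controls, whereas those of Slc43a1 overlapped them at day 6. The day 4 differences were 0.74 ± 0.17 (SE; limma adjusted p = 0.0912) for Slc43a2 and 0.39 ± 0.22 (SE; limma adjusted p = 0.371) for Slc43a1. The most abundant members of the class gave overlapping groups. Slc38a2 was 135, 179 and 112 in wildtype, 140.2 and 124 on day 4, and 149 and 135 FPKM on day 6. Slc1a5 was 106, 125 and 123 in wildtype, 108 and 107 on day 4, and 143 and 111 FPKM on day 6. Their groups overlapped at both days, with 95% intervals of the day 4 difference from -0.59 to 0.43 for Slc38a2 and from -0.54 to 0.29 for Slc1a5.

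At the low end of the class, Slc7a4, an orphan relative of the cationic amino acid transporters, was 1.79, 1.66 and 1.51 in wildtype, 0.751 and 0.567 on day 4, and 0.393 and 1.41 FPKM on day 6, and all knockout libraries lay below the controls. Slc38a10, at 72.7 ± 7.58 FPKM in controls the third of the class, was 53.7 and 56.00 FPKM at day 4 and 73.98 and 66.2 FPKM at day 6. Its day 4 libraries were below the lowest control (66.4 FPKM) and its day 6 libraries were not both below. Over the class of 25, 4 members were higher and 2 lower at an unadjusted p under 0.05 at day 4 (all genes 6.2% and 12.3%), and 4 higher and 0 lower at day 6 (all genes 3.79% and 3.47%). Among 19 genes listed for ATF4 and the amino acid response, the program that induces amino acid transporters when amino acids run short, 0 passed the threshold by limma at either day, and at an unadjusted p under 0.05 there were 2 higher and 5 lower at day 4 and 2 higher and 0 lower at day 6. Psat1, a serine synthesis enzyme and the listed gene with the smallest day 4 p, was 4.64, 4.90 and 4.89 in wildtype, 10.8 and 7.88 on day 4, and 12.1 and 9.34 FPKM on day 6. Atf3, a stress transcription factor, was 662, 588 and 524 in wildtype, 352 and 226 on day 4, and 440.4 and 546 FPKM on day 6. Psat1 was higher in every knockout library and Atf3 lower in both day 4 libraries. For mTORC1 and lysosomal amino acid sensing, 0 of 12 genes passed by limma (at an unadjusted p under 0.05, 0 at day 4 and 2 lower at day 6), with a median log2 change of -0.10 at day 4 and 0.06 at day 6.

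**Figure D3:**
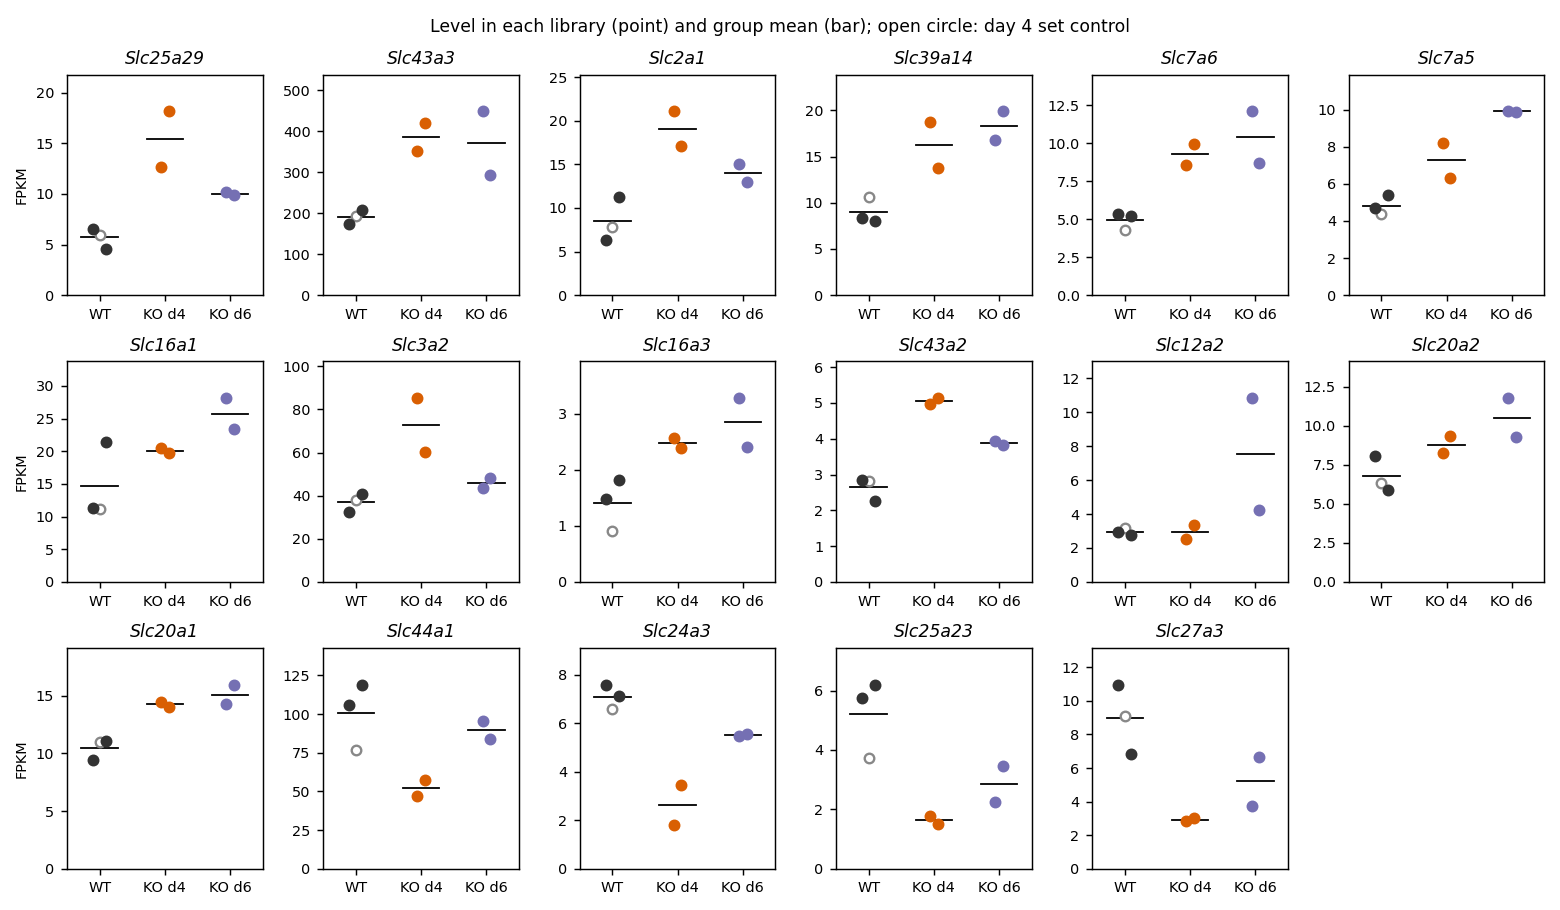
FPKM in each library (point) with the group mean (bar) for 17 members, in wildtype (WT) and in knockout libraries at day 4 (KO d4) and day 6 (KO d6); the open circle is the day 4 set control. The 4 knockout points of Slc25a29, Slc43a3, Slc2a1, Slc39a14, Slc7a6 and Slc7a5 lie above all 3 controls, and those of Slc24a3, Slc25a23 and Slc27a3 lie below them.

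Among mitochondrial carriers, Slc25a29 was the member called. Opposite to it in direction was Slc25a23, a calcium-regulated carrier of ATP-Mg and phosphate, which was 3.72, 6.19 and 5.77 in wildtype, 1.76 and 1.49 on day 4, and 2.23 and 3.47 FPKM on day 6. All knockout libraries lay below the controls, and the day 4 set control was the lowest of the 3 controls. The day 4 difference was -1.22 ± 0.25 (SE; limma adjusted p = 0.0655) against all controls and -0.85 against the day 4 set control. Slc25a25, the paralog that carries out the same exchange, stood at a far higher level, with 42.3, 65.4 and 47.5 in wildtype, 80.1 and 73.4 on day 4, and 63.8 and 54.1 FPKM on day 6. Its day 4 libraries were above the controls and its day 6 libraries among them.

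The abundant ADP/ATP carriers are encoded by separate genes of closely similar sequence. Slc25a5 was 115, 165 and 144 in wildtype, 189 and 236 on day 4, and 205 and 175 FPKM on day 6, with every knockout library above every control. Slc25a4 was 137, 163 and 152 in wildtype, 133 and 146 on day 4, and 179.8 and 138 FPKM on day 6, with the groups overlapping. The day 4 difference was 0.59 ± 0.22 (SE; limma adjusted p = 0.211) for Slc25a5 and -0.11 ± 0.19 (SE; limma adjusted p = 0.810) for Slc25a4, and whether the 2 genes differ in response was not tested. Slc25a5 has processed pseudogenes, and how the authors' counting divided such reads is not given in the sources used here. Slc25a3, the phosphate carrier that supplies ATP synthase, was 72.05, 75.2 and 63.4 in wildtype, 83.9 and 110.4 on day 4, and 87.6 and 81.4 FPKM on day 6. Here too the knockout libraries were all above the controls, with a day 4 difference of 0.45 ± 0.18 (SE; limma adjusted p = 0.241).

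Other carriers of the family showed single-library values. Slc25a17, a peroxisomal member, was 44.3 FPKM in day 4 knockout replicate 2 and 12.1 to 17.97 FPKM in the other 6 libraries. Slc25a20, which exchanges acylcarnitine for carnitine, was 19.9, 20.05 and 19.9 in wildtype, 22.1 and 32.8 on day 4, and 25.7 and 19.2 FPKM on day 6, highest in the same library. Slc25a34 was at or under 0.132 FPKM in controls, 0.359 and 1.36 FPKM at day 4 and 1.23 and 0.316 FPKM at day 6, and it entered the set through its knockout libraries. Lower in all 4 knockout libraries were Slc25a11, the oxoglutarate carrier (23.7, 27.1 and 27.8 FPKM in controls, 19.4 to 22.9 FPKM in knockout libraries), and Slc25a35 (5.74, 6.37 and 6.003 FPKM and 3.99 to 5.16 FPKM). Over the 36 carriers, the counts at an unadjusted p under 0.05 were 5 higher and 2 lower at day 4 (all genes 6.2% and 12.3%) and 1 higher and 3 lower at day 6 (all genes 3.79% and 3.47%), with median log2 changes of -0.02 and 0.07.

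Among 13 sugar carriers, 1 was higher and 1 lower at an unadjusted p under 0.05 at day 4 and 1 higher and 0 lower at day 6. Among 4 carriers of monocarboxylates and related acids, 1 was higher and 1 lower at day 4 and 2 higher and 0 lower at day 6. Over all genes tested the shares were 6.2% higher and 12.3% lower at day 4 and 3.79% and 3.47% at day 6. Slc2a1, the widespread basal glucose transporter, was 7.85, 11.3 and 6.33 in wildtype, 21.1 and 17.1 on day 4, and 15.1 and 12.95 FPKM on day 6. Every knockout library exceeded the highest control, and the day 4 pair was highest. The difference was 1.11 ± 0.24 (SE; limma adjusted p = 0.0773) at day 4 and 0.69 ± 0.24 (SE; limma adjusted p = 0.609) at day 6. Slc16a3, which exports lactate from glycolytic cells, was 0.908, 1.82 and 1.48 in wildtype, 2.56 and 2.39 on day 4, and 3.28 and 2.41 FPKM on day 6, again without overlap. Slc16a1, which moves lactate, pyruvate and ketone bodies in either direction, was 11.1, 21.5 and 11.3 in wildtype, 20.4 and 19.7 on day 4, and 28.1 and 23.3 FPKM on day 6. Its first day 6 set control reached the day 4 knockout level, so that only the day 6 libraries stood clear of the controls. The day 6 differences were 0.83 ± 0.28 (SE; limma adjusted p = 0.595) for Slc16a1 and 0.69 ± 0.23 (SE; limma adjusted p = 0.594) for Slc16a3.

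The other sugar transporters had day 4 differences between -0.47 and 0.39. Slc2a3, the neuronal-type glucose transporter, was 2.18, 4.03 and 1.81 in wildtype, 3.55 and 2.98 on day 4, and 2.68 and 2.62 FPKM on day 6. Slc2a8, an intracellular hexose transporter, was 11.3, 13.00 and 14.5 in wildtype, 11.8 and 11.2 on day 4, and 13.4 and 9.59 FPKM on day 6. Slc37a3, a relative of the glucose-6-phosphate transporter, was 17.2, 17.6 and 15.6 in wildtype, 19.8 and 16.3 on day 4, and 17.8 and 18.2 FPKM on day 6. The groups of Slc2a3 and Slc2a8 overlapped at both days, and for Slc37a3 the day 6 pair was just above the controls. Slc2a10, a member of the same family linked to arterial tortuosity, was 11.3, 11.00 and 10.2 in wildtype, 6.70 and 8.46 on day 4, and 10.4 and 9.26 FPKM on day 6, under the controls in the day 4 pair and in 1 day 6 library. Among 20 tested genes of a glycolysis and hypoxia list, 0 passed the threshold at either day and at an unadjusted p under 0.05 there were 0 at day 6 and 3 higher at day 4 by limma (Pgk1, Gapdh and Ldha, all glycolytic enzymes). Ldha, which makes lactate, was 282, 399.9 and 266 in wildtype, 475 and 511 on day 4, and 443 and 381 FPKM on day 6. Gapdh was 193 FPKM in the day 4 set control and 215 and 277 FPKM in the day 4 knockouts, against 66.5 to 91.4 FPKM in every library of the other set, so its level followed the set. Blood endothelial markers averaged 2.54 and 2.79 (mean log2(FPKM + 1) over 12 genes) in the day 4 knockout libraries, 2.44 in the day 4 set control and 1.94 to 2.45 in the day 6 set. Their part in the values of Slc2a1, Slc3a2 and the other transporters that were highest at day 4 was not tested.

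Among transporters of nucleosides and nucleobases, Slc43a3 was the most abundant solute carrier in every group. It was 194, 208 and 172 in wildtype, 351 and 419 on day 4, and 449 and 292 FPKM on day 6. All 4 knockout libraries were above the controls, by differences of 1.00 ± 0.24 (SE; limma adjusted p = 0.0974) at day 4 and 0.92 ± 0.24 (SE; limma adjusted p = 0.540) at day 6, and the pair at day 6 was widely spaced. Against controls of the same set the difference was 0.98 at day 4 and 0.93 at day 6. For Slc29a1 the levels were 88.8, 148 and 124 in wildtype, 88.4 and 87.9 on day 4, and 152 and 86.9 FPKM on day 6. Its day 4 pair lay just under the lowest control, and the day 6 libraries were on either side of the controls. Slc29a3, the lysosomal nucleoside transporter, was 7.31, 5.53 and 5.71 in wildtype, 5.04 and 5.37 on day 4, and 5.05 and 4.95 FPKM on day 6, lower in each knockout library than in each control by less than 1 FPKM at the nearest. The concentrative transporter Slc28a2 varied from 0.158 to 2.97 FPKM, with its lowest value in day 4 knockout replicate 2.

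Among metal transporters, Slc39a14 had the largest difference at day 6. This protein, which imports zinc, manganese and non-transferrin-bound iron, was 10.6, 8.06 and 8.32 in wildtype, 18.8 and 13.7 on day 4, and 16.7 and 19.9 FPKM on day 6. No knockout library overlapped a control. The differences were 0.78 ± 0.20 (SE; limma adjusted p = 0.110) at day 4 and 0.95 ± 0.20 (SE; limma adjusted p = 0.343) at day 6, and 0.55 and 1.07 against controls of the same set. The abundant zinc transporter Slc39a7 was 97.5, 95.9 and 124 in wildtype, 97.9 and 119.5 on day 4, and 127 and 105 FPKM on day 6, with a 95% interval of -0.41 to 0.50 for the day 4 difference. Slc39a13, a zinc transporter of the early secretory pathway that connective tissue needs, was 37.8, 32.6 and 36.1 in wildtype, 20.9 and 26.8 on day 4, and 32.6 and 35.7 FPKM on day 6. Slc48a1, the lysosomal heme transporter, was 36.7, 35.9 and 39.7 in wildtype, 27.7 and 29.9 on day 4, and 35.9 and 36.4 FPKM on day 6. Both were lower in the day 4 pair and near control values at day 6, with day 4 differences of -0.56 ± 0.17 (SE; limma adjusted p = 0.146) for Slc39a13 and -0.37 ± 0.14 (SE; limma adjusted p = 0.228) for Slc48a1.

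Iron export and endosomal metal transport varied with single libraries. Slc40a1, the iron exporter ferroportin, was 13.05, 20.3 and 17.1 in wildtype, 25.2 and 36.00 on day 4, and 25.2 and 11.03 FPKM on day 6. Both day 4 values were above the controls, while the day 6 values were on either side of them. Slc11a1, a metal transporter of macrophage phagosomes, was 2.40, 3.41 and 1.28 in wildtype, 6.68 and 0.522 on day 4, and 5.82 and 3.39 FPKM on day 6. Its lowest value was in day 4 knockout replicate 2, the library where macrophage markers were lowest (summed over the 14 genes, 540.5 to 879 in wildtype, 1347 and 52.9 on day 4, and 797 and 679 FPKM on day 6). Fcgr1 was the only listed marker at 0 in that library. The 9 listed macrophage and leukocyte transporters, Slc11a1 and Slc40a1 among them, did not share that low value. Their sum was highest in that library (63.3 FPKM, against 44.6 to 60.1 FPKM in the others). Their mean log2(FPKM + 1) was 2.28 there and 2.18 to 2.58 in the others. The part of macrophages in the value of Slc11a1 was not tested. Of 11 tested genes in a list for metal response and iron, 0 passed the threshold by limma at either day, and 2 were higher at an unadjusted p under 0.05 at day 4 and 1 at day 6. Mt2, a metallothionein, was 67.4, 294 and 137 in wildtype, 977 and 402 on day 4, and 429 and 659 FPKM on day 6, the knockout libraries all above the controls, with a day 4 difference of 2.16 and adjusted p = 0.134 by limma. Over the 25 metal and heme carriers, 2 were higher and 4 lower at an unadjusted p under 0.05 at day 4 (all genes 6.2% and 12.3%), and 1 higher and 0 lower at day 6 (all genes 3.79% and 3.47%).

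**Figure D4:**
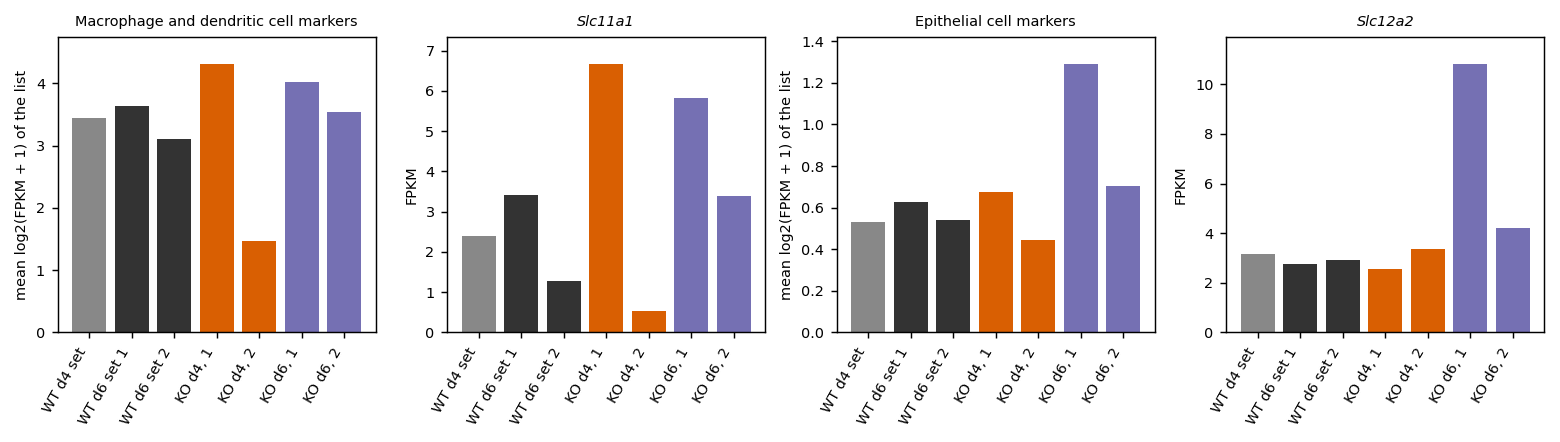
Mean log2(FPKM + 1) of macrophage and dendritic cell markers and of epithelial cell markers, beside the FPKM of Slc11a1 and Slc12a2, in each library (grey and black wildtype, orange day 4 knockout, purple day 6 knockout). Slc11a1 is lowest in day 4 knockout replicate 2, where the macrophage mean is 1.47, and Slc12a2 is highest in day 6 knockout replicate 1, where the epithelial mean is 1.29. Not drawn are the summed levels of the listed transporters. Those of macrophages and leukocytes were highest in day 4 knockout replicate 2, and those of epithelium were lowest in day 6 knockout replicate 1.

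Ion transporters held the member with the second smallest adjusted p at day 4. Slc24a3, a potassium-dependent sodium/calcium exchanger, was 6.60, 7.14 and 7.58 in wildtype, 1.81 and 3.44 on day 4, and 5.46 and 5.57 FPKM on day 6. All knockout libraries lay below the controls and the day 4 pair was lowest. The day 4 difference was -1.20 ± 0.22 (SE; limma adjusted p = 0.0515), which passed the threshold under quantile normalization (adjusted p = 0.0467), median scaling (0.0436), a robust prior (0.0448), with zeros set missing (0.0474) and without the day 4 set control (0.0454). It did not pass with a pseudocount of 0.1 (limma adjusted p = 0.0535) or 0.5 (0.0525), a filter on the mean (0.0514) or no filter (0.139). Nor did it pass with controls of the same harvest set, with no trend in the prior or without either day 6 set control. It also did not pass when any single knockout library was left out. Day 6 knockout libraries were higher than day 4 knockout libraries by 0.88 (95% interval 0.33 to 1.43, limma adjusted p = 0.298).

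The sodium-phosphate cotransporters Slc20a1 and Slc20a2 were both higher in all knockout libraries. Slc20a1 was 11.01, 11.03 and 9.41 in wildtype, 14.5 and 14.05 on day 4, and 14.3 and 15.9 FPKM on day 6. Slc20a2 was 6.33, 5.89 and 8.06 in wildtype, 8.22 and 9.35 on day 4, and 11.8 and 9.27 FPKM on day 6. At day 6 the differences were 0.49 ± 0.15 (SE; limma adjusted p = 0.582) and 0.57 ± 0.19 (SE; limma adjusted p = 0.595), in that order. Slc12a2, the sodium-potassium-chloride cotransporter, was 3.15, 2.74 and 2.94 in wildtype, 2.55 and 3.37 on day 4, and 10.8 and 4.23 FPKM on day 6, so that 1 of the 2 day 6 libraries stood far above all others. That library, day 6 knockout replicate 1, also had the highest epithelial marker mean (1.29, against 0.44 to 0.71 in the others) and 8.31 FPKM of the keratin gene Krt8, which was at most 1.56 FPKM elsewhere. Summed over the 14 epithelial markers, the levels were 8.998 to 11.8 in wildtype, 15.9 and 11.1 on day 4, and 37.0 and 13.2 FPKM on day 6, with Fabp1 and Sis at 0 in day 6 knockout replicate 1. Cdh1, Krt18, Krt19, Cldn3, Cldn7 and Lgals4 were also highest in that library, and Fabp2 was lowest there. Epcam was instead highest in day 4 knockout replicate 1 (5.70 FPKM, against 2.87 FPKM in day 6 knockout replicate 1), where Slc12a2 was 2.55 FPKM. Vil1 was highest in the first day 6 set control. The 17 listed epithelial transporters, of which 3 met the expression minimum, had their lowest sum in day 6 knockout replicate 1. It was 8.15 FPKM there, with 11 listed at 0, and 9.51 to 13.4 FPKM in the other libraries. The part of epithelial RNA in the value of Slc12a2 was not tested. The potassium-chloride cotransporter Slc12a4, the most abundant of the class, was 42.1, 36.9 and 47.4 in wildtype, 25.9 and 40.8 on day 4, and 48.8 and 43.9 FPKM on day 6. Slc4a2, a chloride/bicarbonate exchanger, was 17.1, 12.6 and 17.2 in wildtype, 10.8 and 12.2 on day 4, and 13.4 and 15.1 FPKM on day 6. Slc9a9, an endosomal sodium/proton exchanger, was 8.49, 14.6 and 10.9 in wildtype, 7.96 and 10.5 on day 4, and 10.95 and 8.45 FPKM on day 6. For Slc4a2 the day 4 pair was just under the controls, and for the other two the groups overlapped. Over the 19 ion carriers, 1 was higher and 3 lower at an unadjusted p under 0.05 at day 4 (all genes 6.2% and 12.3%), and 3 higher and 0 lower at day 6 (all genes 3.79% and 3.47%).

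Of 9 lipid-related transporters, 5 had both day 4 libraries below all controls (22% of all genes) and 2 had both above (12.5% of all genes). The 5 include Slc27a6, which entered the set through wildtype libraries only, so its lower level at day 4 was favoured by its selection. Slc27a3, of the fatty acid transport protein family, was 9.08, 6.85 and 10.9 in wildtype, 2.83 and 2.996 on day 4, and 3.74 and 6.66 FPKM on day 6. All 4 knockout libraries lay below the lowest control, with day 6 replicate 2 close to it. The difference was -1.33 ± 0.26 (SE; limma adjusted p = 0.0606) at day 4 and -0.70 ± 0.26 (SE; limma adjusted p = 0.636) at day 6. The choline transporter Slc44a1 was 76.6, 119 and 106 in wildtype, 47.1 and 57.5 on day 4, and 95.8 and 84.02 FPKM on day 6. The day 4 libraries were below all controls and the day 6 libraries were not, and the day 4 set control was the lowest control. Its day 4 difference was -0.91 ± 0.22 (SE; limma adjusted p = 0.102) against all controls, -0.55 against the day 4 set control and -1.09 with adjusted p = 0.0319 when that control was left out. Slc44a2, its paralog, was 26.8, 24.8 and 27.4 in wildtype, 19.6 and 19.8 on day 4, and 23.3 and 26.8 FPKM on day 6, lower in the day 4 pair and within 2 FPKM of the controls at day 6. Slc27a1, another fatty acid transport protein, was 12.6, 14.1 and 15.8 in wildtype, 10.5 and 10.4 on day 4, and 10.5 and 12.98 FPKM on day 6, under the controls in all but the second day 6 library.

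In the other direction, Slc10a6, which carries sulfated steroids, was 40.5, 47.5 and 43.6 in wildtype, 78.4 and 60.8 on day 4, and 51.5 and 47.5 FPKM on day 6, with a day 4 difference of 0.65 ± 0.17 (SE; limma adjusted p = 0.118). Its second day 6 knockout library was level with the first day 6 set control to 3 digits. Slc33a1, which brings acetyl-CoA into the endoplasmic reticulum, was 13.8, 10.2 and 12.9 in wildtype, 14.9 and 14.2 on day 4, and 15.01 and 15.6 FPKM on day 6, above the controls in each knockout library. Of the 9 members of the class, 1 was higher and 4 lower at an unadjusted p under 0.05 at day 4 (all genes 6.2% and 12.3%), with a median log2 change of -0.39 (the value of Slc27a6 itself), and 0 higher and 1 lower at day 6 (all genes 3.79% and 3.47%), with a median of -0.14. Among 11 fatty acid handling genes, 2 rose at day 4 by limma (background 0.401%) and 0 fell (background 0.622%), namely Fabp4, a fatty acid binding protein (log2 change 1.87, adjusted p = 0.0424), and Plin2, a lipid droplet coat protein (1.52, adjusted p = 0.0443). Fabp4 was 6.68, 5.53 and 3.16 in wildtype, 25.8 and 16.5 on day 4, and 14.5 and 13.5 FPKM on day 6. For one-carbon, choline and phospholipid metabolism, 0 of 6 tested genes passed by limma and 0 had an unadjusted p under 0.05 at either day, with a median change of -0.01 at day 4.

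Osmolyte and neurotransmitter-type transporters were low in level and variable. Slc6a9, the glycine transporter, was 13.6, 10.97 and 14.3 in wildtype, 4.35 and 12.4 on day 4, and 7.56 and 13.3 FPKM on day 6. Slc6a8, the creatine transporter, was 2.59, 4.31 and 4.44 in wildtype, 2.23 and 4.34 on day 4, and 2.98 and 3.80 FPKM on day 6. Slc16a12, a creatine transporter of the monocarboxylate family, was 1.64, 2.89 and 4.52 in wildtype, 1.84 and 4.55 on day 4, and 1.28 and 1.16 FPKM on day 6. In these 3 the day 4 libraries differed more from each other than their mean did from the control mean, and Slc16a12 was lowest in both day 6 libraries. Slc6a6, the taurine transporter, was 2.79, 1.48 and 1.57 in wildtype, 2.87 and 5.11 on day 4, and 3.04 and 2.70 FPKM on day 6, with a day 4 difference of 0.75 ± 0.27 (SE; limma adjusted p = 0.208). Slc6a11, a GABA transporter, was 8.40 FPKM in day 4 knockout replicate 2 and 0.521 to 2.78 FPKM in the other libraries. Of 7 tested genes in a list for creatine, taurine and osmolyte response, 0 passed the threshold by limma. At an unadjusted p under 0.05, 2 were lower at day 4 (all genes 12.3%) and 1 at day 6 (all genes 3.47%). The largest day 4 differences there were those of Akr1b3, aldose reductase (-1.98), and Gamt, a creatine synthesis enzyme (-1.57), with limma adjusted p of 0.154 and 0.0976.

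Vitamin carriers centred on folate, thiamine and ascorbate. Slc46a1, the proton-coupled folate transporter, was 7.17, 9.35 and 9.05 in wildtype, 3.98 and 5.07 on day 4, and 4.70 and 6.25 FPKM on day 6. Knockout and control libraries did not overlap, with differences of -0.78 ± 0.20 (SE; limma adjusted p = 0.108) at day 4 and -0.56 ± 0.20 (SE; limma adjusted p = 0.618) at day 6. Slc46a1 is also on the epithelial transporter list, and the part of epithelial RNA in its values was not tested. Slc23a2, an ascorbate transporter, was 11.3, 13.02 and 13.4 in wildtype, 11.3 and 17.3 on day 4, and 13.8 and 13.4 FPKM on day 6. Slc19a2, a thiamine transporter, was 6.72, 6.64 and 5.30 in wildtype, 7.15 and 5.79 on day 4, and 8.05 and 6.81 FPKM on day 6. The groups of Slc23a2 overlapped at both days, and for Slc19a2 the day 6 pair was above the controls.

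Among 8 transporters of organic ions and drugs, 1 was higher and 0 lower at an unadjusted p under 0.05 at day 4 (all genes 6.2% and 12.3%). Slc22a17, a receptor for lipocalin-2, was 14.5, 17.96 and 26.3 in wildtype, 12.2 and 14.8 on day 4, and 13.02 and 16.8 FPKM on day 6, spread as widely among controls as between groups. Slc22a5, the carnitine transporter, stayed between 8.54 and 10.6 FPKM. Slc17a5, the lysosomal sialic acid exporter, was 7.45, 7.15 and 5.89 in wildtype, 10.2 and 9.31 on day 4, and 8.78 and 7.50 FPKM on day 6, just above the controls in each knockout library. Of the Golgi nucleotide sugar carriers, Slc35a4, whose substrate is unsettled, was 24.4, 20.9 and 22.8 in wildtype, 21.8 and 32.4 on day 4, and 24.8 and 22.8 FPKM on day 6. Slc35a2, for UDP-galactose, was 13.5, 18.5 and 18.2 in wildtype, 12.5 and 11.4 on day 4, and 17.9 and 14.3 FPKM on day 6. Slc35a1, for CMP-sialic acid, was 16.2, 15.98 and 14.9 in wildtype, 14.5 and 19.6 on day 4, and 14.1 and 16.5 FPKM on day 6. The day 4 pair of Slc35a2 lay under the controls, and the other 2 genes overlapped. Controls of the 5 members of this class had a median coefficient of variation of 4.45%. At an unadjusted p under 0.05, 0 were higher and 0 lower at day 4 (all genes 6.2% and 12.3%). At day 6 the counts were 0 higher and 1 lower (all genes 3.79% and 3.47%). For 3 members no substrate class was assigned. Slc10a3 was 7.11, 5.30 and 5.85 in wildtype, 7.25 and 6.69 on day 4, and 6.55 and 6.53 FPKM on day 6. Its groups overlapped, Slc10a7 lay between 3.23 and 4.21 FPKM, and Slc46a3 between 0.609 and 1.27 FPKM.

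**Figure D5:**
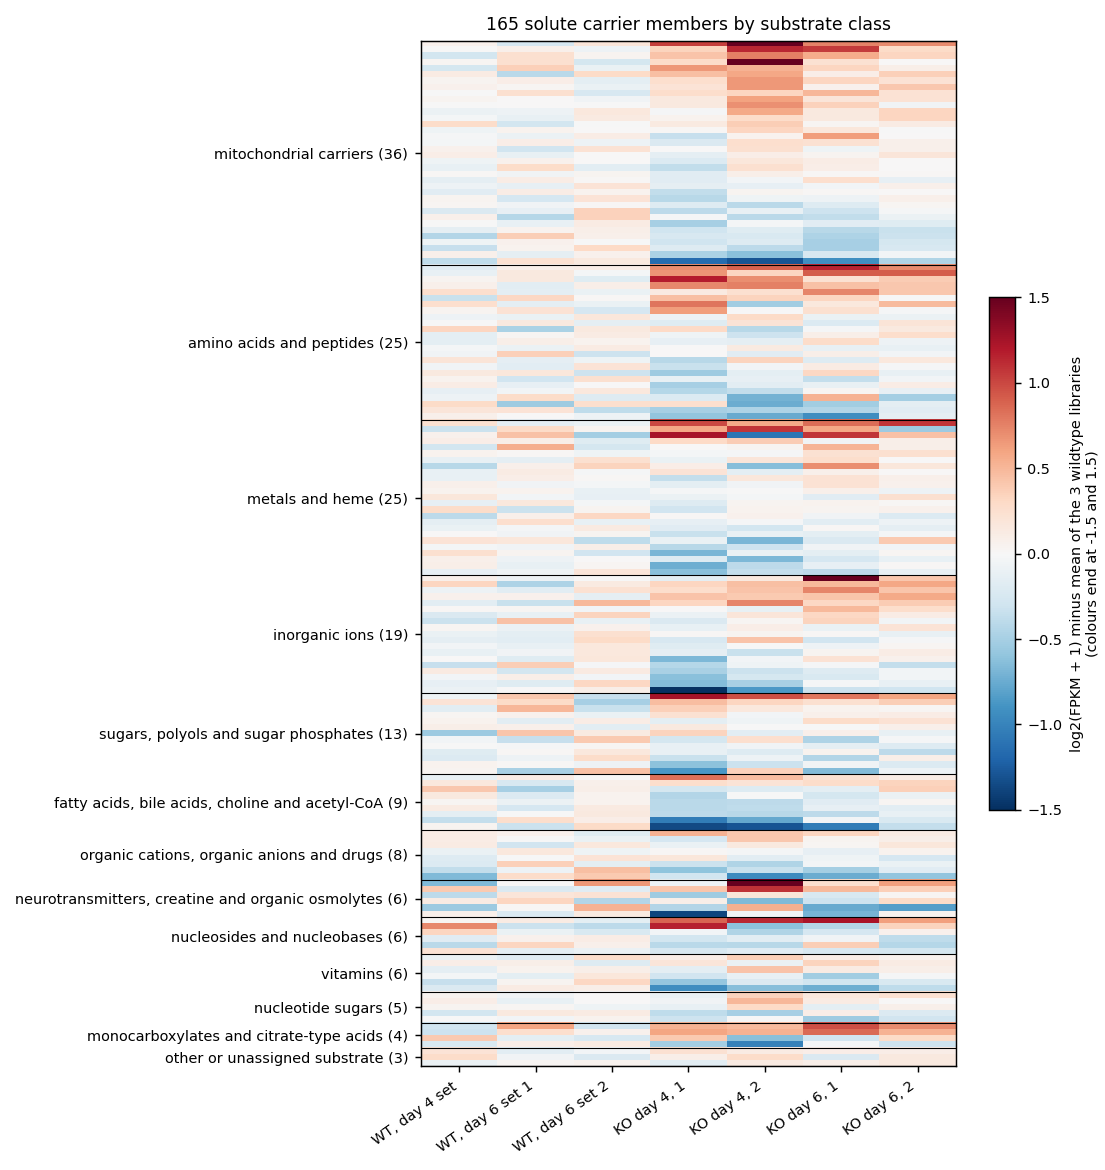
Each row is a member, grouped by substrate class and ordered within it by the knockout average, and each column a library. Colour is log2(FPKM + 1) minus the mean of the 3 wildtype libraries, with red above, blue below and the scale ending at -1.5 and 1.5. Most rows are pale, and the strongest colours fall at the top and bottom of classes and in the day 4 knockout columns.

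Other lists bear on what else the sorted cells could hold. Past the threshold by limma at either day there were 0 of 9 tested NRF2 targets (at day 4, 2 higher and 1 lower at an unadjusted p under 0.05), 0 of 9 macrophage and leukocyte transporters (1 higher), 0 of 8 smooth muscle and pericyte markers (1 higher, 1 lower) and 0 of 1 enteric glia and neuron marker (0). The same count of 0 held for 11 endothelial markers (4 higher), 12 macrophage and dendritic cell markers (0), 7 B and plasma cell markers (0), 4 epithelial markers (1 lower) and 3 epithelial transporters (1 lower). Over all genes tested, the day 4 shares at an unadjusted p under 0.05 were 6.2% higher and 12.3% lower. At day 6 and an unadjusted p under 0.05 there were 2 higher and 1 lower of the 4 epithelial markers, with a median log2 change of 0.61. The other day 6 counts were 2 higher for the NRF2 targets, 1 higher and 1 lower for smooth muscle and pericyte markers, 1 lower for epithelial transporters and 0 for the remaining 5 lists (all genes 3.79% higher and 3.47% lower). Of 12 trophocyte and fibroblast markers, 2 fell at day 4 (Cd34 by 1.33 and Wnt2b by 1.31 on the log2 scale, limma adjusted p = 0.0413 and 0.0489; background 0.622%) and 0 at day 6. At an unadjusted p under 0.05 there were 1 higher and 5 lower at day 4 and 2 higher and 2 lower at day 6. Whether the transporter values at day 4 moved with the makeup of the sorted cells was not tested.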

How the data were processed

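RNA of 7 sorted-cell libraries was captured on poly-T beads, primed with random hexamers and sequenced on an Illumina instrument, per the labels' protocols. The authors deposited FPKM values in a single table, per the file headers. The submitters' processing notes name kallisto 0.46.1, DESeq2 1.40.1 and mm9 without their roles. Which program made the FPKM values, and how it divided reads between related genes, is not given in the sources used here. For 293 symbols that occur more than once among 25493 rows, only the row of highest mean was used, so that 24908 symbols remained. Reference spelling was matched for 24772 of them, all 165 members included. Control columns carry no replicate number that could tie them to the numbered titles, so controls are named by set, and the knockout column without a day was taken as day 6 replicate 2 because no other sample was left.

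Every gene reaching 1 FPKM in 2 or more libraries was tested as log2(FPKM + 1), a scale that understates the change of low genes. A model with 1 mean per group was fitted to all 7 libraries with limma 3.58.1 (R 4.3.3) (4 residual degrees of freedom, a prior of 3.78 that followed the mean level). P-values are two-sided and adjusted by the Benjamini-Hochberg method over all 11735 genes, with a threshold of 0.05. Tables and motif counts were made in Python 3.11.15 with pandas 2.3.3 and numpy 2.4.6, and the fit was checked on simulated data. Named members are the 10 with the smallest p in each comparison with wildtype, the 4 with the smallest p between the days, and the 3 with the highest control mean in each class. For 1 member that this rule names, the result is not reported here. Other members are named where their groups do not overlap or 1 library stands apart, and these were chosen after their values were seen. The members, classes and gene lists were chosen with earlier results of these data known. Alternatives covered the pseudocount, filter, scaling, controls, prior and each library left out. For gene lists the share of tested members is stated where they are described.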

Additional observations from a re-analysis of the deposited data

How the results depend on the processing

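Among the 165 members, the day 4 count of 1 was also 1 with a pseudocount of 0.1 or 0.5 and with a filter on the mean. It was 0 with no filter, 0 with controls of the same harvest set, 0 with no trend in the prior, 2 with median scaling, 2 with a robust prior, 2 with zeros set missing and 3 with quantile normalization. Slc25a29 was the member called in the first 3 of these settings. With 2 or more calls, the calls were Slc25a29 higher and Slc24a3 lower, joined under quantile normalization by Slc27a3. Leaving out 1 library at a time gave 0 to 4 members, the 4 (Slc25a29, Slc24a3, Slc25a23 and Slc44a1) without the day 4 set control, in which Col1a1, Col1a2 and Dcn are listed at 0. Without that control 474 genes were called in all, against 120 with it, 6 or 2 when the first or the second day 6 set control was dropped, and 98 or 9 when day 4 knockout replicate 1 or 2 was dropped. Where 1 day 4 library remained, it was assumed to vary like the other groups. The count over all genes was 119 and 118 with the smaller pseudocounts, 0 with no filter (18257 tested), 160 with quantile normalization, 127 with median scaling, 5 with controls of the same set, 71 with no trend, 167 with a robust prior and 160 with zeros missing. The cause was not tested.

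At day 6 and between the days, 0 members were called in every setting run, and with both days averaged 0 except for 1 (Slc25a29, adjusted p = 0.0449 by limma) under quantile normalization. For members with wholly separate groups, leaving out a library gave 34 to 56 above and 42 to 75 below at day 4, 39 to 54 above and 18 to 46 below at day 6, and 21 to 25 above and 10 to 23 below over both days. With a library left out, fewer values must stand apart, so such a count cannot fall. The members' median log2 change at day 4 was 0.02 with quantile normalization and 0.00 with median scaling, against -0.06. Of 582 alternative values for single named members, 0 changed direction, 8 lost and 9 gained a call. With the replicate number as a block, the comparison of day 6 with day 4 called 0 members and 15 genes. Same-numbered libraries did not deviate together (correlation -0.0275 across 11735 genes), and for the comparisons with wildtype no paired analysis was possible because control columns carry no replicate numbers. Depth is unknown, and differences in genes near 1 FPKM cannot be set against counting error.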

Other observations

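Symbols that begin with Slc or Slco but fall outside the naming pattern numbered 26 among the genes tested, of which Slc9a3r1, Slc9a3r2, Slc7a6os and Slc4a1ap are named after a carrier and are not transporters. By limma 0 of them passed the threshold at day 4 or day 6. At an unadjusted p under 0.05 there were 1 higher and 5 lower at day 4 (all genes 6.2% and 12.3%). At day 6 there were 0 (all genes 3.79% higher and 3.47% lower). Slco2b1, an organic anion and steroid sulfate transporter, was the most abundant, with 62.6, 93.7 and 89.3 FPKM in wildtype, 69.5 and 84.2 on day 4, and 70.2 and 58.7 on day 6. Slc35b2, which brings the sulfate donor into the Golgi, had 42.2, 45.3 and 43.1 FPKM in wildtype, 30.2 and 32.7 on day 4, and 36.3 and 42.8 on day 6. Its day 4 values were under every other library.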
